A study of Rattus norvegicus with 9 samples.

Results

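Levels of 6 inflammatory genes were examined in 9 RNA sequencing libraries of rat brain tissue. The genes were the cytokine genes Il1b (ENSRNOG00000004649) and Il6 (ENSRNOG00000010278), the chemokine gene Ccl2 (ENSRNOG00000007159), the adhesion molecule genes Icam1 (ENSRNOG00000020679) and Vcam1 (ENSRNOG00000014333), and Ptgs2 (ENSRNOG00000002525), which encodes cyclooxygenase 2. They were chosen by Ensembl ID for their known roles and not by a rule on their values, though earlier results of these data were known. They are 6 of the 32883 genes in the deposited table. The pairing of these IDs with their symbols came with the choice of genes. The deposited table gives IDs only, and the rat gene table used here (RefSeq, GRCr8) paired 0 of the 32883 IDs with a symbol, so the ligands, receptors and regulators that work with these genes, and markers of brain cell types, could not be looked up, and the labelled tissue was not checked against markers.

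The libraries form 3 groups of 3. Sham rats had a sham operation, MCAO rats had the middle cerebral artery closed, a model of ischaemic stroke, and PN rats had the same closure and were given Panax notoginseng, a medicinal root. The title of the series speaks of ischaemia with reperfusion. The sources used here give no strain, sex, age, brain region, hemisphere, sampling time, dose or route. Whether the libraries of a group stem from different rats is not stated, so p-values measure the spread between these libraries, which may be technical. RNA was enriched with oligo(dT) beads. Libraries are named by group and the code that ends their title.

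These genes belong to the early inflammatory response of injured tissue. In the ischaemic brain, microglia, invading macrophages and endothelial cells are known to make interleukin 1 beta and interleukin 6, which act on neighbouring cells. Interleukin 1 beta drives further cytokine genes through the transcription factor NF-kappaB. The chemokine Ccl2 draws monocytes from the blood, and Icam1 and Vcam1 on the vessel wall hold the integrins of leukocytes so that the cells can pass through it. Cyclooxygenase 2 makes prostaglandins, is induced by injury, and is also made by excitatory neurons of the uninjured forebrain in step with their activity.

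No promoter activity or factor binding was measured here. The stretches below show where the sequences upstream of these genes hold matches to motifs of factors known for the family, beside the different patterns of expression that follow. They come from RefSeq, build GRCr8, which held an upstream sequence for 5 of the 6 genes (not Ccl2). The 250 bases before each annotated start were searched on both strands for the kappaB motif of NF-kappaB, its short form GGAANTTCC, the cAMP response element TGACGTCA, the C/EBP motif TTNNGCAAT, the AP-1 motif TGANTCA and the TATA box TATAAA. Each stretch reads 5′ to 3′ on the gene's strand and runs from 15 bases before the first match to 15 after the last, with matches in capitals.
Il6, chr4:5894619-5894752, minus strand: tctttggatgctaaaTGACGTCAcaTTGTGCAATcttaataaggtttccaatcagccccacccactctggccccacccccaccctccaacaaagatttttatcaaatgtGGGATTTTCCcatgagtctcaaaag
Vcam1, chr2:206742823-206742891, minus strand: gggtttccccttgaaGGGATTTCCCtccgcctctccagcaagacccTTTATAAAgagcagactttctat
Icam1, chr8:27829612-27829812, plus strand: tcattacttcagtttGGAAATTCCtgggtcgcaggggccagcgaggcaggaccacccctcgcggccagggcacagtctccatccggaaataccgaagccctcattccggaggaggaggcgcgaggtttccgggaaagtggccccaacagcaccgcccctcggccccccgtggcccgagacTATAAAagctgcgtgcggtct
Il1b, chr3:137036621-137036656, minus strand: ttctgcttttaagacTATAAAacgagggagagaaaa
Ptgs2, chr13:64713908-64713946, plus strand: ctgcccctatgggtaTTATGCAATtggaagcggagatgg

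Il6 had a kappaB match 68 to 59 bases before its start (GGGATTTTCC), a cAMP response element 162 to 155 bases before it and a C/EBP match 152 to 144 bases before it. Vcam1 had a kappaB match 93 to 84 bases before its start (GGGATTTCCC), which reads as a match on both strands, and a TATA box on the gene strand that overlaps a match on the other strand. Icam1 had the short kappaB form 218 to 210 bases before its start (GGAAATTCC) and a TATA box. In these windows Il1b had a TATA box and Ptgs2 a C/EBP match, and no other match. No AP-1 match was found in the 5 windows. Among 33469 upstream sequences of the same length, 6.33% held the kappaB motif, 0.669% its short form, 1.59% the cAMP response element, 2.04% the C/EBP motif, 6.34% the AP-1 motif and 12.9% a TATA box. A match describes letters only.

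Levels are given as FPKM, fragments scaled to transcript length and to the mapped fragments of the library, as deposited. The number of fragments per gene is not known. The libraries differed little in relative depth, by at most 1.33 times (PN 7A over MCAO 3B), read from the steps of values under 0.15 FPKM. Across the 15051 genes that reached 1 FPKM in at least 3 libraries, only 2 of the 9 libraries had their closest match inside their own group. The table lists between 8 and 17 genes per library at exactly 0 although their median over all libraries was at least 5 FPKM, so a 0 can be a failed estimate, and genes with a 0 are given here by library, without a mean or a fold in FPKM. Ccl2 entered the tests with its zeros. In bulk tissue fewer cells of a type and less RNA per cell cannot be told apart.

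None of the 6 genes differed between groups at an adjusted p under 0.05. By mean FPKM over the libraries Vcam1 stood highest of the 4 genes above 0 in every library (11.9), followed by Ptgs2 (8.97), Icam1 (3.59) and Il1b (0.714). Vcam1 and Ptgs2 lay near the middle of the 15051 genes tested, above 53.8% and 45.4% of them, Icam1 lay above 23.2%, and Il1b above 0.478%. Ccl2 reached 1 FPKM in 3 libraries and Il6 in none, so 5 of the 6 genes entered the tests and Il6 did not. Il1b passed the filter with 3 libraries (sham 4B, PN 3A and PN 7A). Ccl2 also passed with 3 (MCAO 3B, MCAO 7A and PN 3A), none of them sham.

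**Figure D1:**
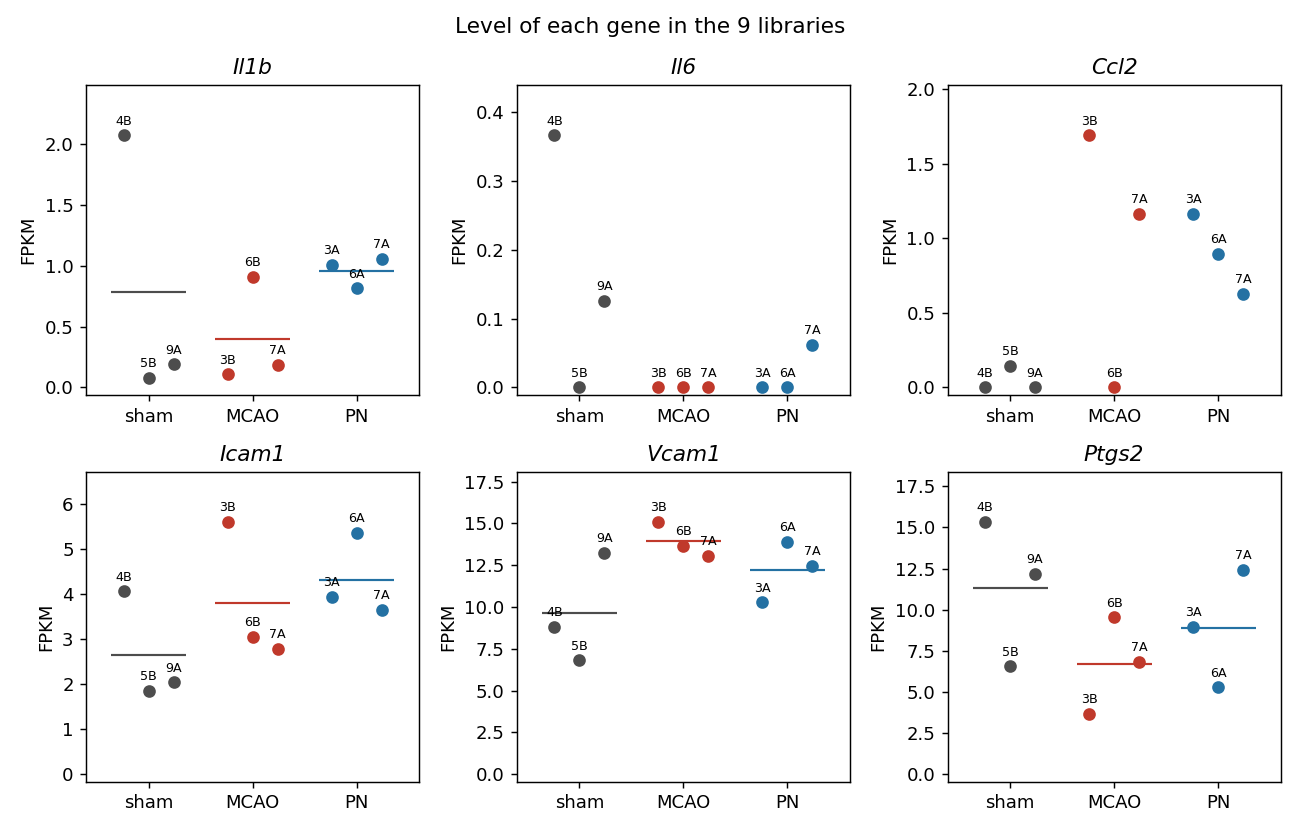
FPKM of each of the 6 genes (vertical axes, 1 panel per gene) in the 3 sham, 3 MCAO and 3 PN libraries, each point a library labelled by its code, with the group mean as a line for genes above 0 in all libraries. Sham 4B is highest for Il1b, Il6 and Ptgs2, and MCAO 3B for Ccl2, Icam1 and Vcam1.

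Il1b encodes interleukin 1 beta, made as a precursor and cut by caspase-1 before release. In the sham group its FPKM was 2.07 (4B), 0.0797 (5B) and 0.189 (9A). In the MCAO group it was 0.107 (3B), 0.911 (6B) and 0.186 (7A), and in the PN group 1.01 (3A), 0.814 (6A) and 1.06 (7A). The sham group thus held both the highest and the lowest library of all 9, and its range covered those of MCAO and PN. The 3 PN libraries lay close together, with 1.3 times between highest and lowest, against 26.0 times in sham and 8.51 times in MCAO. This difference in spread was not tested. Group means were 0.960 ± 0.129 FPKM in PN, 0.781 ± 1.12 in sham and 0.401 ± 0.443 in MCAO (SD, n = 3 each), and no neighbours in this order differed beyond their spread. On the scale of fragments (FPKM multiplied by relative depth), the 4 lowest libraries (sham 5B, MCAO 3B, MCAO 7A and sham 9A) were within 2.13 times of the lowest, and the other 5 were at 9.60 to 24.2 times it.

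On the log2(FPKM + 1) scale, where SE is the standard error and which understates the change of low genes, Il1b differed by -0.22 between MCAO and sham (SE 0.41; limma, adjusted p = 0.855). The difference of PN from MCAO was 0.53 (SE 0.41; limma, adjusted p = 0.588), and 8 of the 9 pairs of a PN and an MCAO library had the higher value in PN. Against sham, PN differed by 0.31 (limma, adjusted p = 0.985). The sign for MCAO against sham rested on 1 library: without sham 4B the difference was 0.26, with the opposite sign (limma, adjusted p = 0.806). The 95% interval of PN against MCAO was -0.39 to 1.45. PN against sham was 0.79 without sham 4B (unadjusted p = 0.0347, limma, adjusted p = 0.729) and 0.03 without sham 5B. The size of these differences followed the pseudocount: with 0.1 in place of 1, PN against MCAO was 1.43 (limma, adjusted p = 0.562) and PN against sham 1.13 (limma, adjusted p = 0.976).

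Il6 encodes interleukin 6, a cytokine of the acute phase response that signals through the receptor subunit gp130. It was above 0 in 3 libraries: sham 4B at 0.366, sham 9A at 0.126 and PN 7A at 0.0612 FPKM. It was listed at 0 in sham 5B, in all MCAO libraries and in PN 3A and 6A. The highest library for Il6 was a sham library, and the same one that was highest for Il1b. Fitted with no filter on low values, Il6 did not pass in any comparison (limma, adjusted p = 0.599 for MCAO against sham, 0.961 for PN against MCAO and 0.932 for PN against sham, over 22342 genes).

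Ccl2 encodes a chemokine for monocytes that carry its receptor Ccr2. It was listed at 0 in sham 4B and 9A and was at 0.142 FPKM in sham 5B. The MCAO libraries had 1.69 (3B), 0 (6B) and 1.16 FPKM (7A), and the PN libraries 1.16 (3A), 0.898 (6A) and 0.630 FPKM (7A). All PN libraries lay above all sham libraries, the only such separation among the 5 genes tested in any of the 3 comparisons, and MCAO split into 2 libraries above every sham library and 1 at 0. Ccl2 came through the filter by MCAO and PN libraries only, so its separation from sham is a description and not support for a difference. Over all 15051 genes, the groups did not overlap in 19.6% for MCAO against sham, 20.3% for PN against MCAO and 8.71% for PN against sham, where the members' counts were 0, 0 and 1 of 5.

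The separation of Ccl2 did not carry through the test across genes. The unadjusted p of PN against sham was 0.0414, with an adjusted p of 0.974 (limma), and the exact permutation p was 0.1 (two-sided), the smallest that 3 against 3 libraries allow. With 1 library left out, the unadjusted p of Ccl2 stayed under 0.05 only without MCAO 3B or without MCAO 6B. MCAO against sham gave an adjusted p of 0.463 and PN against MCAO one of 0.951 (limma). Ccl2 also lost it with the code letter as a covariate (unadjusted p = 0.143), with array weights (0.0519) and with quantile scaling (0.0607). All PN libraries carry the letter A, and otherwise only sham 9A and MCAO 7A do, so the letter is largely tied to PN. The fitted differences behind these tests rest on the libraries at 0 and followed the pseudocount: PN against sham was 0.85 with 1 and 2.86 with 0.1, and MCAO against sham 0.78 and 2.18. Leaving out MCAO 6B, the MCAO library at 0, gave an unadjusted p of 0.00186 for MCAO against sham, still with an adjusted p of 0.489 (limma). This removes the MCAO library that lay against the difference, so that p is a description and not support. With MCAO 6B left out, MCAO and sham did not overlap in 31.0% of all genes tested.

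Icam1 encodes an immunoglobulin-like receptor on endothelium and microglia that binds the beta-2 integrins of leukocytes. The sham libraries had 4.06 (4B), 1.85 (5B) and 2.04 FPKM (9A), and the MCAO libraries 5.60 (3B), 3.05 (6B) and 2.79 FPKM (7A). The PN libraries had 3.94 (3A), 5.36 (6A) and 3.66 FPKM (7A). The ranges of all 3 groups overlapped. Group means were 2.65 ± 1.23 FPKM in sham, 3.81 ± 1.56 in MCAO and 4.32 ± 0.913 in PN (SD, n = 3 each), an order in which no neighbours differed beyond their spread. Sham 4B, again the highest sham library, lay above 2 of the 3 MCAO and 2 of the 3 PN libraries.

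The log2 difference of Icam1 was 0.40 for MCAO against sham (SE 0.31; limma, adjusted p = 0.638), 0.18 for PN against MCAO (limma, adjusted p = 0.829) and 0.58 for PN against sham (limma, adjusted p = 0.974). For PN against sham 7 of 9 library pairs had the higher value in PN, and the 95% interval ran from -0.11 to 1.27. Without sham 4B all PN libraries lay above the remaining sham libraries, with a difference of 0.84, an unadjusted p of 0.0213 and an adjusted p of 0.729 (limma). With sham 4B left out, PN and sham did not overlap in 24.5% of all genes tested. Without MCAO 3B the difference of MCAO from sham was 0.15 (limma, adjusted p = 0.899), and without sham 4B it was 0.66 (limma, adjusted p = 0.547). With 1 library left out, PN against MCAO ran from 0.03 (without MCAO 7A) to 0.43 (without MCAO 3B).

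Vcam1 encodes the endothelial ligand of an alpha-4 integrin carried by monocytes and lymphocytes. FPKM in sham was 8.80 (4B), 6.81 (5B) and 13.2 (9A), and in MCAO 15.1 (3B), 13.6 (6B) and 13.1 (7A). In PN it was 10.3 (3A), 13.9 (6A) and 12.5 (7A). The MCAO libraries were the most alike of any group, within 1.15 times, and sham 9A was the only sham library that reached their range, just above MCAO 7A. Group means were 13.9 ± 1.03 FPKM in MCAO, 12.2 ± 1.83 in PN and 9.62 ± 3.30 in sham (SD, n = 3 each). Neighbours in this order, MCAO and PN, and PN and sham, overlapped.

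Vcam1 was 0.54 higher in MCAO than in sham on the log2 scale, with a standard error of 0.23, and 8 of 9 library pairs had the higher value in MCAO. The unadjusted p was 0.0449 and the adjusted p 0.440 (limma), and the exact permutation p was 0.2 (two-sided). With 1 library left out, the unadjusted p of Vcam1 stayed under 0.05 only without sham 9A or without PN 3A. Without sham 9A, whose column name in the table starts unlike those of sham 4B and 5B, all MCAO libraries lay above the remaining sham libraries and the difference was 0.77 (unadjusted p = 0.00551, limma, adjusted p = 0.405). With sham 9A left out, MCAO and sham did not overlap in 31.2% of all genes tested. Without sham 5B the difference of Vcam1 was 0.34 (limma, adjusted p = 0.713). PN differed from MCAO by -0.18 (limma, adjusted p = 0.753), with a 95% interval of -0.70 to 0.34, and by between -0.28 (without PN 6A) and -0.07 (without PN 3A) with 1 library left out. PN differed from sham by 0.35 (limma, adjusted p = 0.974), by 0.15 without sham 5B and by 0.59 without sham 9A (unadjusted p = 0.0213, limma, adjusted p = 0.795).

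Ptgs2 showed the highest group mean in sham. Its product, cyclooxygenase 2, turns arachidonic acid into the precursor of prostaglandins and thromboxane. Sham libraries held 15.3 (4B), 6.55 (5B) and 12.2 FPKM (9A), MCAO libraries 3.64 (3B), 9.53 (6B) and 6.84 FPKM (7A), and PN libraries 8.96 (3A), 5.27 (6A) and 12.4 FPKM (7A). Libraries of each group differed by more than 2 times, between 2.34 (sham) and 2.62 times (MCAO), and all 3 groups overlapped. Group means were 11.3 ± 4.45 FPKM in sham, 8.89 ± 3.58 in PN and 6.67 ± 2.95 in MCAO (SD, n = 3 each), and no neighbours in this order differed beyond their spread.

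The log2 difference of Ptgs2 between MCAO and sham was -0.69 (SE 0.40; limma, adjusted p = 0.543), and 7 of 9 library pairs were lower in MCAO. It was 0.38 for PN against MCAO (limma, adjusted p = 0.707) and -0.32 for PN against sham (limma, adjusted p = 0.985). With 1 library left out, PN against MCAO ran from 0.05 (without MCAO 3B) to 0.67 (without PN 6A), and PN against sham from -0.64 (without sham 5B) to -0.02 (without PN 6A). Array weights gave 0.78 for PN against MCAO (unadjusted p = 0.0490, limma, adjusted p = 0.226). That setting put a weight of 6.19 on PN 7A, the PN library with the most Ptgs2, against 0.345 on PN 3A and 0.664 on PN 6A. With these weights 3300 of 15051 genes had an unadjusted p under 0.05 in PN against MCAO (limma). For MCAO against sham, without sham 5B, the sham library with the least Ptgs2, both other sham libraries lay above all MCAO libraries and the difference was -1.01 (unadjusted p = 0.0360, limma, adjusted p = 0.687). With sham 5B left out, MCAO and sham did not overlap in 28.8% of all genes tested. Without MCAO 3B the difference of Ptgs2 was -0.37 (limma, adjusted p = 0.828).

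**Figure D2:**
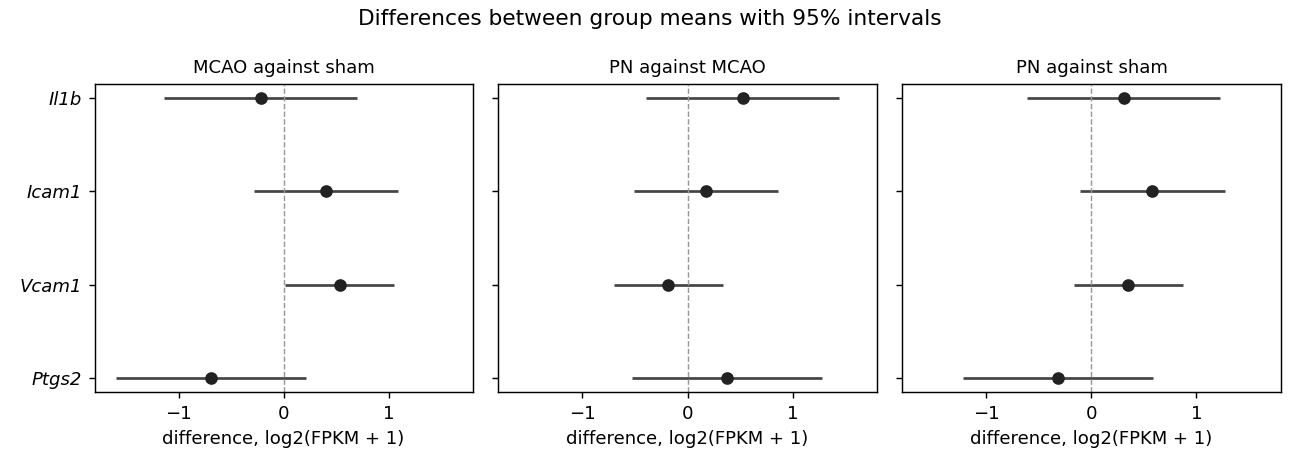
Differences of group means on the log2(FPKM + 1) scale (horizontal axes) with 95% intervals from limma, 1 panel per comparison, for the 4 genes above 0 in all libraries. Of the 12 intervals, that of Vcam1 in MCAO against sham is the only one that does not cover 0, and its adjusted p is 0.440. Ccl2, which passed the filter by MCAO and PN libraries only, is not drawn. Its interval in PN against sham was 0.04 to 1.66 (limma, adjusted p = 0.974).

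Adjusted, MCAO and sham differed in 0 of the 5 genes tested (0.00664% of all genes), as did PN and MCAO (0.00664%) and PN and sham (0.0199%). At an unadjusted p under 0.05, MCAO and sham differed in 1 of 5 (Vcam1, higher in MCAO; 11.1% of all genes), PN and MCAO in 0 of 5 (13.2%), and PN and sham in 1 of 5 (Ccl2, higher in PN; 4.25%). With 5 genes, 1 is the smallest count above none, so these shares are read neither as above nor as below the background. Ccl2 came through the filter by MCAO and PN libraries only, so its count against sham is not support for a difference. A limma F-test of any difference among the 3 groups passed for 0 of 5 genes, both adjusted (smallest adjusted p among the 5 = 0.510, Ccl2) and at an unadjusted p under 0.05, where 0.0199% and 10.3% of all genes passed.

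The signs of the fitted differences were mixed. Ccl2, Icam1 and Vcam1 had higher fitted means in MCAO than in sham, and Il1b and Ptgs2 lower ones, with a median of 0.40 over the 5 genes against -0.01 over all genes tested. The fitted mean was higher in PN than in MCAO for 4 of 5 genes (all but Vcam1; median 0.18, against 0.07), and higher than in sham for 4 of 5 (all but Ptgs2; median 0.35, against 0.04). For Ccl2 the first of these signs, at 0.07, rested on single libraries: only 3 of 9 library pairs were higher in PN, and the fitted difference was -0.36 without MCAO 6B, the MCAO library at 0, and -0.032 without PN 3A. The 3 comparisons share libraries, so these counts are not independent of each other. The share of all genes with each sign was not computed, so the counts have no background beside them.

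Differences between libraries of the same group were large for Il1b and Ptgs2. Their standard deviation within groups was 0.54 and 0.58 on the log2(FPKM + 1) scale, above that of 82.2% and 84.9% of the genes tested. Icam1 had 0.39 (above 64.0%) and Vcam1 0.28 (above 42.1%), against a median of 0.32. Ccl2, fitted with its zeros, had 0.45 (above 73.3%). Group means accounted for 52.1% of the variation of Ccl2, 47.7% of Vcam1, 36.8% of Icam1, 26.7% of Ptgs2 and 19.1% of Il1b. The median over all genes tested was 29.0%. Ccl2 came through the filter by MCAO and PN libraries only and was fitted with its zeros, so its share is a description and not support for a difference.

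**Figure D3:**
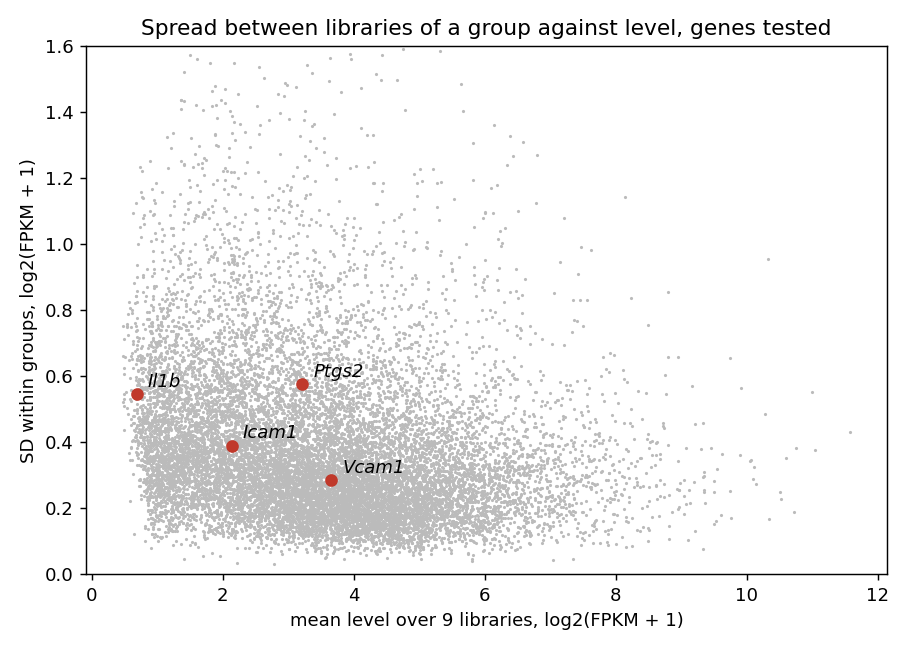
Standard deviation between libraries within groups against mean level over the 9 libraries, both on the log2(FPKM + 1) scale, for genes tested (grey points; 66 of 15051 lie above the axis limit of 1.6) and for the 4 genes above 0 in all libraries (red). Ptgs2 and Il1b, at 0.58 and 0.54, lie above most genes, Icam1 and Vcam1 among them.

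The 6 genes did not share 1 pattern over the libraries. Sham 4B was the highest library for Il1b, Il6 and Ptgs2 and was at 0 for Ccl2. MCAO 3B was the highest for Ccl2, Icam1 and Vcam1, the lowest for Ptgs2, and next to lowest for Il1b. Sham 5B was the lowest of all for Il1b, Icam1 and Vcam1. The 3 libraries with Ccl2 at 0, sham 4B, sham 9A and MCAO 6B, were among the 4 with the most Ptgs2, beside PN 7A. This pattern of Ccl2 and Ptgs2 was picked from the values and was not tested.

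Of the 6 pairs among the 4 genes above 0 in every library, none passed after adjustment. Il1b and Ptgs2 gave the highest correlation over the 9 libraries (Pearson r = 0.63, exact permutation p = 0.0744, adjusted 0.446; Spearman rho = 0.77, exact permutation p = 0.0214, adjusted 0.128; two-sided, adjusted over 6 pairs). It was 0.42 without sham 4B and 5B, the 2 libraries farthest from the median of Il1b, and 0.68 for deviations from group means. Icam1 and Vcam1, both on the vessel wall, gave r = 0.45 (exact permutation p = 0.223, adjusted 0.507) and rho = 0.47 (exact permutation p = 0.213, adjusted 0.425), and r = 0.19 without sham 5B and 9A. Icam1 and Ptgs2 gave r = -0.36 (exact permutation p = 0.338, adjusted 0.507) and rho = -0.23 (exact permutation p = 0.552, adjusted 0.552). The other 3 pairs had r between -0.29 and 0.40. The starts of the column names, which no label explains, differ between groups, with all MCAO libraries under 1 start, so such a source and the group cannot be told apart.

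**Figure D4:**
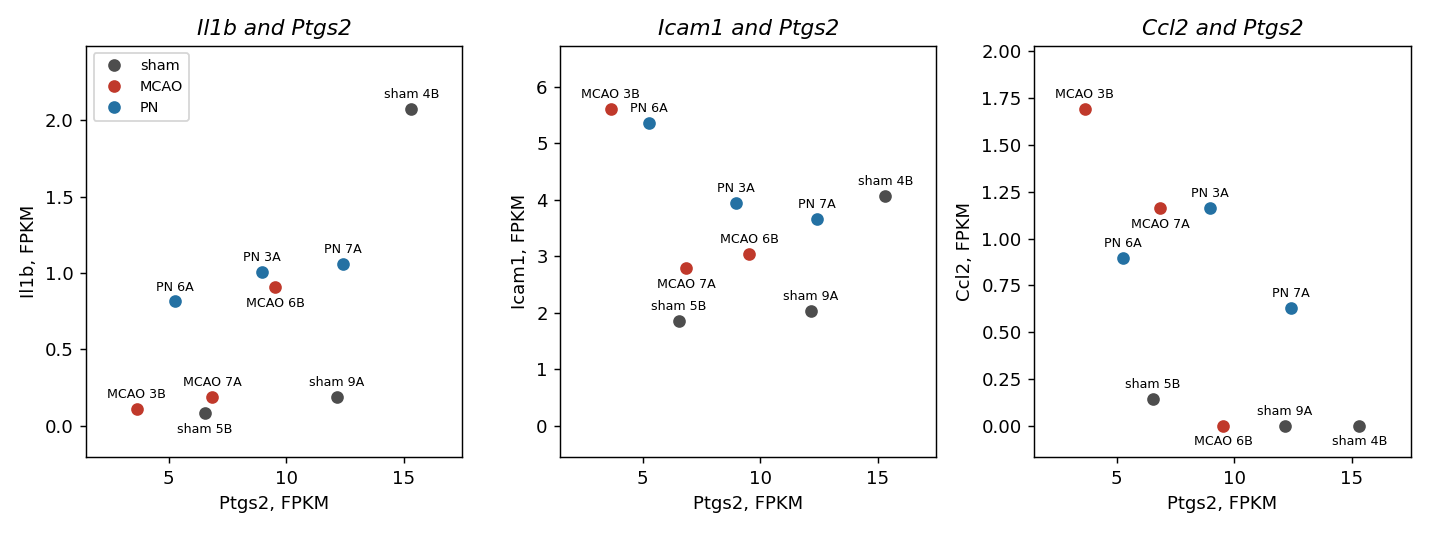
FPKM of Il1b, Icam1 and Ccl2 (vertical axes) against that of Ptgs2 (horizontal axes) in the 9 libraries, coloured by group. Sham 4B holds the most Ptgs2 and Il1b with Ccl2 at 0, and MCAO 3B the least Ptgs2 with the most Icam1 and Ccl2.

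The genes whose levels ran most like those of a member could be given by ID only, and the likeness is a description over 9 libraries that share depth and scaling. Vcam1 had 66 of 15050 genes at a Pearson r above 0.9, with ENSRNOG00000038297 closest (r = 0.978), a gene at 2.30 FPKM in sham 5B and 10.8 FPKM in MCAO 3B, the same lowest and highest libraries as for Vcam1. Icam1 had 46 such genes, with ENSRNOG00000025980 closest (r = 0.979), a gene listed at 0 in sham 5B and at 2.09 FPKM in MCAO 3B. Il1b had 14 genes above that value, Ptgs2 13 and Ccl2 6.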

How the data were processed

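The authors deposited 1 table of FPKM, per the file headers, with 32883 Ensembl gene IDs and 9 library columns. HISAT2, StringTie 1.3.1, Bowtie2 2.2.8 and fastp 0.18.0 are listed, with no roles, per the submitters' processing notes. The build, the annotation and any use of strand stand in no source used here. Columns were matched to samples by code. 2 titles end in 7A, and their columns were told apart by the start of the column name.

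The 6 members and the tests were chosen with earlier results of these data known. All members were to be named, with the genes most like them. Gene lists fixed by symbol were not applied, because no ID could be paired with a symbol.

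Genes with at least 1 FPKM in at least 3 libraries (15051) were fitted on the log2(FPKM + 1) scale over all 9 libraries with limma 3.58.1 (R 4.3.3; group means, mean-variance trend), two-sided, with Benjamini-Hochberg adjustment over all genes tested and a threshold of 0.05. Power to find differences of the size reported here, in genes as low as Il1b and Ccl2, was not tested. Exact permutation tests and correlations used Python 3.11.15, numpy 2.4.6 and scipy 1.17.1. Alternatives tried were another pseudocount (0.1), other filters (none, 5 FPKM), 3 scalings, robust empirical Bayes, array weights, 6 libraries only, the code letter as a covariate, the code number as a block, and libraries left out. Overlap of groups with 1 library left out was added after seeing the data.

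Relative depth came from the ratio at which values under 0.15 FPKM pile up between 2 libraries. These ratios closed over 28 of 28 pairs of the other libraries to within 1.33e-05 on the log2 scale.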

Additional observations from a re-analysis of the deposited data

How the results depend on the processing

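Of 296 fits of a tested gene under the alternatives, 0 passed the adjusted threshold (limma, smallest adjusted p = 0.226, Ptgs2 in PN against MCAO with array weights). The sign stayed in 289, but some settings left the difference unchanged and could not turn it. These were the filters, robust empirical Bayes, only the 6 libraries compared and the code number as a block. Leaving out a library of the group not compared, and the code letter in MCAO against sham, also left it unchanged. The sign turned for Il1b in MCAO against sham (-0.49 to 0.26 with 1 library left out), for Ptgs2 between PN and sham with array weights (0.13), and for Ccl2 in PN against MCAO with the code letter as a covariate (-0.034), with array weights (-0.089), without PN 3A and sham 9A together (-0.032) and with 1 library left out (-0.36 to 0.36). The relation of Vcam1 and Ptgs2 turned for deviations from group means (r = 0.10). These causes were not tested. A pseudocount of 0.1 in place of 1 also moved the difference of Ccl2 between PN and MCAO, from 0.07 to 0.67.

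The count of members at an unadjusted p under 0.05 was 1 for MCAO and sham as reported, 2 with no filter, 0 with only the 6 libraries compared and with array weights, and 0 to 1 with 1 library left out: Vcam1 lost it without sham 4B, MCAO 3B, MCAO 7A, PN 6A or PN 7A, and gave way to Ptgs2 without sham 5B and to Ccl2 without MCAO 6B. Over all genes tested, an unadjusted p under 0.05 was reached by 1947 of 22342 with no filter. It was reached by 2010 of 15051 with only the 6 libraries compared and by 2079 with array weights. With 1 library left out 1071 to 2124 genes reached it (limma). In PN against MCAO there was 1 member with array weights (Ptgs2), beside 3300 of 15051 genes. For PN and sham, 1 as reported (Ccl2), it was another gene with the code letter as a covariate and with array weights (Icam1) and without PN 3A and sham 9A together (Vcam1). There were 0 with quantiles and with a minimum of 5 FPKM, which drops Ccl2, and 0 to 2 with 1 library left out: Ccl2 kept it only without MCAO 3B or 6B, Il1b and Icam1 had it without sham 4B, and Vcam1 without sham 9A. Over all 15051 genes, 326 had such a p with the code letter, 1553 with array weights and 1018 without PN 3A and sham 9A together. Quantiles gave 623, the minimum of 5 FPKM 425 of 11049, and 1 library left out 254 to 976 (limma).

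Genes called over the whole table numbered 1 to 3 in MCAO against sham with 1 library left out, 3 with only the 6 libraries compared and 3 without PN 3A and sham 9A together. In PN against MCAO they numbered 4 with no filter, 377 with array weights (weight 6.19 on PN 7A), 2 without PN 3A and sham 9A together and 1 to 4 with 1 library left out, and 5 for PN and sham with array weights. With the code number as a replicate block 0 genes were called in PN against MCAO (smallest adjusted p = 0.134) and 0 members; the numbers are not said to pair rats, and deviations of same-numbered libraries correlated at 0.06, -0.40 and -0.16. No scaling moved the median of all genes by over 0.1. Depth in fragments is unknown, so what it limits was not computed.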
